A study of Mus musculus with 2 samples.

Results

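The 35 genes described here encode the contractile apparatus of smooth muscle and its regulators, and they were taken as a named list by gene symbol from the 32285 genes of the deposited matrices. All 35 symbols were found. The data were raw UMI counts, that is counts of distinct captured transcripts, from droplet 3' single-cell RNA sequencing of mouse lung cells sorted as CD45.2-negative, a gate against blood-derived cells. There was 1 library from WT mice of strain C57B6/J and 1 library from Plaur KO mice, which lack by label the gene of the urokinase receptor uPAR. Both groups were sensitised with LPS and OVA on days 0 and 7 and met aerosolised OVA on day 14, so neither group was unexposed. The series held 8 mice of each genotype; the labels do not give how many entered a library, and they call the material a total lung cell lysate. The knockout is named as Plaur–/– with no cell-type restriction. The series concerns uPAR in the movement of eosinophils and in the reactivity of the airway, whose muscle these genes build.

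The WT library held 11776 barcodes and 57028943 UMIs, and 10225 cells were kept. The Plaur KO library held 9771 barcodes and 51529241 UMIs, and 8934 cells were kept. Plaur transcript was counted in both libraries (76.8 and 44.7 CPM, on 25 and 5 UMIs, in the contractile cells described next). The transcript therefore does not check the label, and the second library is called KO-labelled. The order of the libraries differed between classes described below. Plaur stood at 139 CPM in WT and 79.4 CPM in KO-labelled mesothelial-like cells, but at 114 and 145 CPM in general capillary-like cells. Only 30 barcodes occurred in both libraries. With 1 library per genotype no difference has a replicate check, no test was possible, and every interval below covers counting error only.

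Smooth muscle contracts when calcium entering through voltage-gated channels or released from internal stores binds calmodulin and activates myosin light chain kinase. The kinase phosphorylates the regulatory light chain, and smooth muscle myosin then pulls on actin filaments anchored at dense bodies and membrane plaques. Other kinases hold back the opposing myosin phosphatase, while cyclic GMP and potassium channels relax the muscle, and in the airway the balance of these inputs sets the calibre of the bronchi. Most genes of the apparatus are switched on by serum response factor, which binds a DNA motif named the CArG box, together with its partner myocardin.

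The promoters of the genes are shown first, because the CArG box is what many of them are known to share. RefSeq promoter entries (build GRCm38.p6) existed for 29 of the 35 genes, and the 250 bases before each start were searched on both strands for the CArG box. Actg2, Myh11, Tagln, Myocd, Itpr1 and Rock1 had no entry and were not searched. An exact box lay in 5 of the 29 (17.2%), against 439 of 27025 genes with an entry (1.62%). A CArG-like match, with at most 1 C or G in the core of 6 bases, lay in 8 of the 29 (27.6%) against 2643 of all genes (9.78%). The stretches of 100 bases below hold matches in Srf, which has a pair of exact boxes, in Myl9, Actc1, Cnn2 and Vcl, each with 1 exact box, and in Acta2, whose pair of matches are CArG-like only. Capitals mark exact and CArG-like matches. Actc1 has 4 matches in its window, and 2 of them lie outside the stretch printed.
Acta2, chr19:34255378-34255477, minus strand: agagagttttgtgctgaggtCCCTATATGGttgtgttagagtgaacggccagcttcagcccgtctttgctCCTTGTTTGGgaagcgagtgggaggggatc
Actc1, chr2:114052876-114052975, minus strand: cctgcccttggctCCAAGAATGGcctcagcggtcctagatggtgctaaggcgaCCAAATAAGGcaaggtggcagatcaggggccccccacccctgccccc
Myl9, chr2:156775283-156775382, plus strand: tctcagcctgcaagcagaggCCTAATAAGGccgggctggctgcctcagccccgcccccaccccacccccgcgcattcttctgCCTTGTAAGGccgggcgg
Cnn2, chr10:79988500-79988599, plus strand: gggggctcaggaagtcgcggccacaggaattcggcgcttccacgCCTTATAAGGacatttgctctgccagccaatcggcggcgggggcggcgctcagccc
Vcl, chr14:20929151-20929250, plus strand: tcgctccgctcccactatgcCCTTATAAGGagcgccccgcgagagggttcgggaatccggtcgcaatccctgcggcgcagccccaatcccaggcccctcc
Srf, chr17:46556165-46556264, minus strand: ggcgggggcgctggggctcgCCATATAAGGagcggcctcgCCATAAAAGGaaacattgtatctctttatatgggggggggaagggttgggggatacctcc

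The exact boxes began 47 bases before the start in Actc1, 56 in Cnn2, 161 in Myl9, 227 in Vcl, and 82 and 62 in Srf. The CArG-like pair of Acta2 began 84 and 34 bases before its start. A match describes letters in this window and is not a bound site. The genes with exact boxes did not share a pattern of levels: Actc1 and Myl9 were restricted to the contractile cells described next, Cnn2 was counted in every class, Vcl was higher in aerocyte-like cells, and Srf was highest in the contractile cells in WT, on 6 UMIs, but not in the KO-labelled library.

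Cells were clustered without the 35 genes, so that their levels did not shape the classes. The smooth muscle label was then checked against 19 other smooth muscle markers. The cluster with the most of them among its leading genes held 95 WT cells and 34 KO-labelled cells and had only Mustn1 and Hhip there, as many as its pericyte markers, so the naming rule left it without a cell type name. It is called the contractile cluster from here on. Of the 19 markers 10 were higher there than in any other cluster, over both libraries, and 4 (Nrip2, Fhl5, Casq2 and Olfr558) had no UMI in it. Of 12 pericyte markers 8 were highest in it, and of 10 cardiomyocyte markers 6 were. It is therefore a mixture, and its parts are separated further on. The compared classes beside it were inflammatory fibroblast-like (773 WT and 342 KO-labelled cells, marked by Saa3, Timp1, Ccl2 and Ccl7, and also holding the alveolar fibroblast gene Inmt), adventitial fibroblast-like (457 and 110), mesothelial-like (1031 and 325), general capillary-like (1274 and 855), aerocyte-like (569 and 419) and venous-like cells (255 and 139).

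The 7 compared classes include no epithelial or immune class. Among them, 31 of the 35 genes had their highest level in the contractile cluster in both libraries, 14 of them at over 10 times the next class. The same counts over all genes are not given here, so neither has a background share beside it. Levels are CPM, the UMIs of a gene over all UMIs of the class, on the usual counts-per-million scale. The other 17 of the 31 did not pass that factor in both libraries, and some were highest by a narrow margin. Itpr1 stood 1.16-fold above the next class in WT and 1.09-fold in the KO-labelled library. Among the 17, Kcnmb1 had no UMI in the other compared classes, so its factor is only a lower bound. A further 4 (Vcl, Srf, Rock2 and Rhoa) were not highest in the contractile cluster in both libraries.

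**Figure D1:**
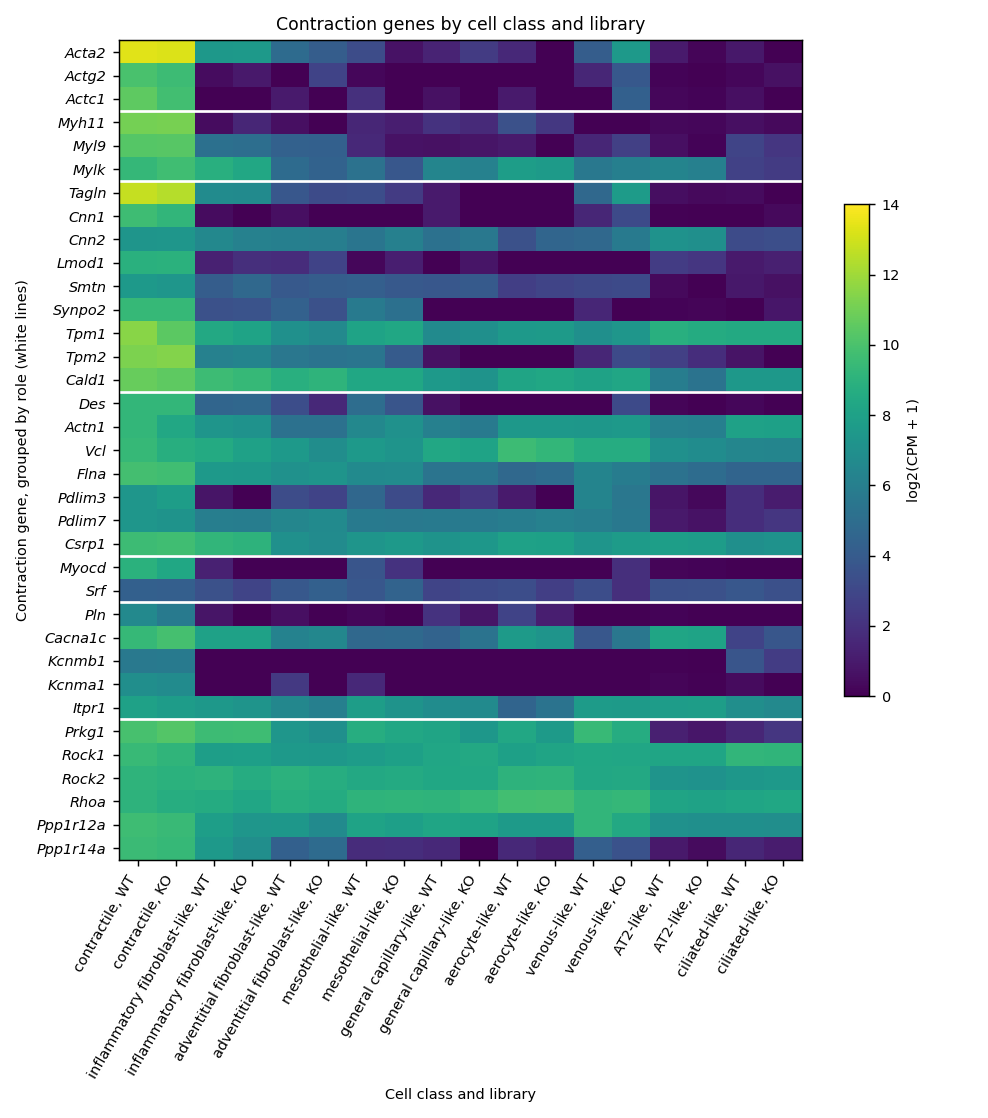
Levels of the 35 contraction genes (rows, grouped by role) in 9 cell classes and 2 libraries (columns) as log2(CPM + 1). The left pair of columns, the contractile cluster, is the brightest for most of the 35 genes, while Rock1, Rock2, Rhoa, Ppp1r12a, Vcl and Csrp1 are counted in nearly every class.

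The actin isoforms were the clearest case. Acta2 (chr19:34241090-34255590, minus strand), vascular and airway smooth muscle actin, stood at 10517 CPM in the WT library and 9774 CPM in the KO-labelled library. The next class held 175 CPM in WT, in inflammatory fibroblast-like cells, and 189 CPM in the KO-labelled library, in venous-like cells. On the log2 scale these are differences of 5.91 and 5.69. Actg2, the enteric smooth muscle actin, stood at 1023 and 778 CPM, and Actc1, the cardiac muscle actin, at 1450 and 876 CPM, with at most 18.6 CPM in any other compared class. The longest transcripts of Acta2, Actg2 and Actc1 in GENCODE release M21 shared no exact run of 60 bases, and the reads were 90 bases long.

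The share of cells with Acta2 gives the same order at equal depth. Acta2 was seen in 66 of 95 WT contractile cells (69.5%, exact binomial 95% interval 59.2 to 78.5) and in 22 of 34 KO-labelled ones (64.7%, 46.5 to 80.3). After thinning to 1000 UMIs per cell, which left out 5 and 1 cells, the shares were 67.8% and 66.7%. In AT2-like cells, alveolar epithelium that should lack the gene, Acta2 was seen in 0.681% and 0.103% of cells, at median depths of 6382 and 6178 UMIs against 2558 and 1961 in the contractile cluster. In inflammatory fibroblast-like cells the shares were 17.9% and 19.6%, and 8.54% and 8.90% after thinning.

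Among the motor genes, smooth muscle myosin was restricted and its kinase was not. Myh11 (chr16:14194535-14291372, minus strand), the smooth muscle myosin heavy chain, stood at 2162 CPM in WT and 2209 CPM in the KO-labelled contractile cells, and at no more than 10.1 CPM in any other compared class. Myl9, the regulatory light chain, stood at 1244 and 1315 CPM, 35.6-fold and 41.4-fold above inflammatory fibroblast-like cells. Mylk, myosin light chain kinase, stood at 630 and 841 CPM in the contractile cluster but also at 460 and 341 CPM in inflammatory fibroblast-like cells and at 218 and 197 CPM in aerocyte-like cells. The contractile cluster gave only 4.86% of the WT UMIs of Mylk, against 94.9% for Myh11.

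Of the 9 thin filament regulators, 5 were over 10 times higher in the contractile cluster than in any other compared class: Tagln, Cnn1, Lmod1, Synpo2 and Tpm2. Tagln (chr9:45929619-45936058, minus strand), the actin-binding protein SM22, stood at 6960 and 5473 CPM, against 105 CPM in the next WT class and 202 CPM in the next KO-labelled class. Tpm2, a tropomyosin, stood at 2442 and 2710 CPM, 34.2-fold and 33.9-fold above inflammatory fibroblast-like cells. Cnn1, calponin 1, stood at 792 and 599 CPM and at no more than 7.99 CPM in the other compared classes, and Lmod1, the actin nucleator leiomodin 1, at 476 and 492 CPM. Lmod1 was also counted in kept cells outside the compared classes. The contractile cluster gave 52.9% of its WT UMIs and 26.2% of its KO-labelled ones. The related genes were broader. Cnn2, calponin 2, stood at 157 and 161 CPM in the contractile cluster and at 139 and 126 CPM in AT2-like cells. Cald1, caldesmon, stood at 1723 and 1476 CPM and at 763 and 659 CPM in inflammatory fibroblast-like cells.

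Tpm1 and Smtn were intermediate. Tpm1 (chr9:67022590-67049406, minus strand), the second tropomyosin, was 8.43-fold and 4.32-fold above the next class. Smtn, smoothelin, stood at 184 and 161 CPM, 10.3-fold above the next class in WT and 6.33-fold in the KO-labelled library.

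Among the 7 genes of dense bodies, plaques and intermediate filaments, only Des passed 10-fold in both libraries. Des, the muscle intermediate filament desmin, stood at 617 and 608 CPM, 19.7-fold above mesothelial-like cells in WT and 24.8-fold above inflammatory fibroblast-like cells in the KO-labelled library. Flna, the actin crosslinker filamin A, stood at 912 and 832 CPM, 5.07-fold and 4.74-fold above the next class. Actn1, alpha-actinin 1, stood at 614 and 340 CPM and at 178 and 174 CPM in aerocyte-like cells. Pdlim3 and Pdlim7, adaptors with PDZ and LIM domains, and Csrp1, a LIM protein, stood no more than 4.94-fold above the next class. Vcl, vinculin, was higher in aerocyte-like cells (762 and 623 CPM) than in the contractile cluster (657 and 438 CPM).

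The transcription factors differed from each other. Myocd, myocardin, stood at 488 and 322 CPM in the contractile cluster, with 11.7 and 3.13 CPM in mesothelial-like cells as its next class. Srf, serum response factor, was sparse everywhere, with 6 and 2 UMIs in the contractile cluster and at most 20.6 CPM in any compared class, so its order across classes rests on few UMIs.

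Of the 5 genes of calcium and potassium handling, Kcnma1 and Pln passed 10-fold. Pln, phospholamban, which restrains the calcium pump of the sarcoplasmic reticulum, passed on few cells: 28 of its 31 WT UMIs in the cluster came from the 7 atrial-gene cells described further on, and all 6 KO-labelled UMIs from 1 cell. Without the atrial-gene cells it stood at 9.62 CPM in WT (3 UMIs), against 6.03 CPM in aerocyte-like cells, so it does not pass 10-fold without them. Kcnma1, the pore of the large-conductance potassium channel, stood at 120 and 107 CPM and at no more than 3.97 CPM in the other compared classes. Its smooth muscle subunit Kcnmb1 stood at 49.1 and 53.7 CPM with no UMI in the other 6 compared classes, and was also counted in ciliated-like cells at 11.9 and 4.67 CPM. Cacna1c, the L-type calcium channel, stood at 657 and 921 CPM in the contractile cluster and at 300 and 276 CPM in AT2-like cells. Itpr1, a calcium release channel of the endoplasmic reticulum, was broad, at 255 and 215 CPM against 220 CPM in WT mesothelial-like cells and 197 CPM in KO-labelled venous-like cells.

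The signalling genes were the most widely shared. None of the 6 passed 10-fold, and Rhoa and Rock2 were not highest in the contractile cluster in both libraries. Rhoa, a small GTPase, stood at 525 and 429 CPM in the contractile cluster against 866 and 886 CPM in aerocyte-like cells. Rock1 and Rock2, kinases that act against myosin phosphatase, stood between 483 and 688 CPM in the contractile cluster, and Rock2 was at 532 and 546 CPM in aerocyte-like cells. Ppp1r14a, the phosphatase inhibitor CPI-17, was the most restricted of the 6 at 756 and 653 CPM, 4.01-fold and 5.40-fold above inflammatory fibroblast-like cells, and Ppp1r12a, the myosin phosphatase targeting subunit, stood at 808 and 715 CPM against 582 and 354 CPM in venous-like cells. Prkg1, cyclic GMP-dependent protein kinase 1, stood at 968 and 1216 CPM against 785 and 800 CPM in inflammatory fibroblast-like cells. Within the venous-like class, Prkg1 sat mainly in its smaller cluster of 54 WT and 29 KO-labelled cells, at 2952 and 1671 CPM, against 135 and 41.1 CPM in the larger cluster.

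**Figure D2:**
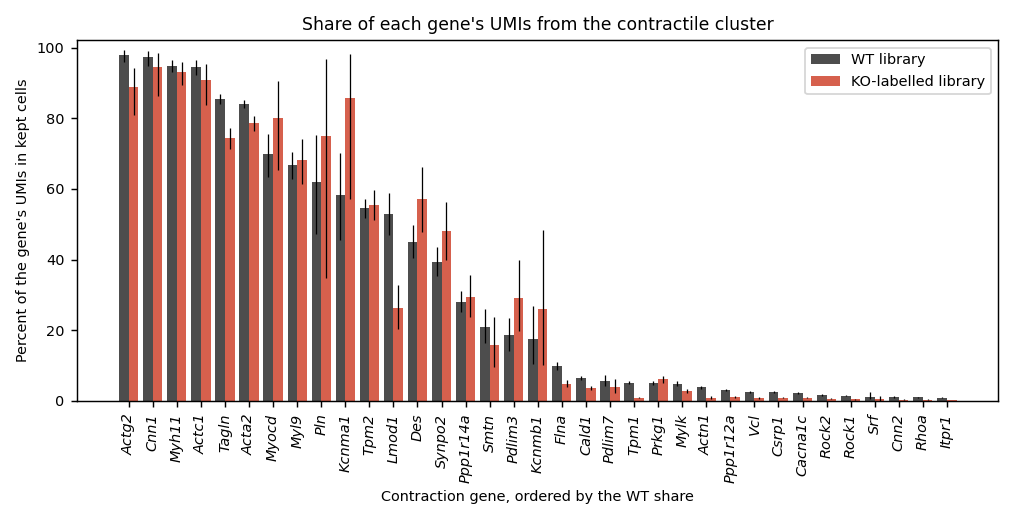
Percent of each gene's UMIs over all kept cells that came from the contractile cluster, for the WT library (dark bars) and the KO-labelled library (light bars), with exact 95% binomial intervals. The bars run from 97.9% in WT for Actg2 down to 0.940% in WT and 0.251% in the KO-labelled library for Itpr1, although the cluster held 0.929% of WT cells and 0.381% of KO-labelled cells.

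How far a gene is a readout of contractile cells can be read from the share of its UMIs that they gave. That share was over 50% for 12 of the 35 genes in each library, and over 90% in WT for Actg2, Cnn1, Myh11 and Actc1. It was 84.0% in WT and 78.6% in the KO-labelled library for Acta2. It was 5.20% and 0.898% for Tpm1 and 0.975% and 0.319% for Rhoa, since most UMIs of these 2 genes came from other cells. Over the 35 genes the median share was 17.6% in WT and 15.8% in the KO-labelled library. The same shares over all genes are not given here.

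The contractile cluster could be divided by genes outside the list. In WT, 7 of its 95 cells carried all 4 of the atrial muscle genes Myl7, Myl4, Sln and Tnni3; no KO-labelled cell of the cluster carried any of them. A further 7 WT and 7 KO-labelled cells carried at least 2 of the pericyte genes Cox4i2, Higd1b and Ndufa4l2. Of the remaining cells, 19 and 7 had a UMI of Hhip, and 62 and 20 had none. These sets were chosen after the clusters were seen and with genes that are no members. At the pericyte threshold of 2 genes sat 1 WT and 3 KO-labelled cells, and 7 and 3 cells had 1 such gene.

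Each set carried a different portion of the contraction genes. The cells under these thresholds and without Hhip held 3355 of the 3424 WT UMIs of Acta2 and 1041 of the 1093 KO-labelled ones. Acta2 stood there at 12768 CPM in WT and 13266 CPM in the KO-labelled library, seen in 54 of 62 and 19 of 20 cells, Myh11 at 2603 and 3008 CPM, and Cnn1 at 982 and 790 CPM. Of the 14 genes that were over 10 times higher in the contractile cluster than in any other compared class, a median of 10 were seen per cell in each library. Those 14 were picked by their level in this same cluster, so the count describes these cells and is no separate support. In the cells with Hhip, Acta2 stood at 1195 and 2846 CPM, seen in 9 of 19 and 2 of 7 cells, and Cnn1 had no UMI in WT.

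In the pericyte-gene cells Acta2 stood at 2341 and 399 CPM (21 and 7 UMIs). Cnn1 and Actc1 had no UMI there, which allows up to 334 CPM in WT and 171 CPM in the KO-labelled library, and Cnn2 stood at 223 and 114 CPM on 2 UMIs each. Prkg1 stood at 3679 and 2166 CPM, seen in all 7 cells of each library. The 7 atrial-gene cells had no UMI of Acta2, Tagln or Myh11, which allows up to 219 CPM each (3 UMIs over the set). They held 322 of the 949 WT UMIs of Tpm1, 92 of the 472 of Actc1 and 28 of the 31 of Pln.

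**Figure D3:**
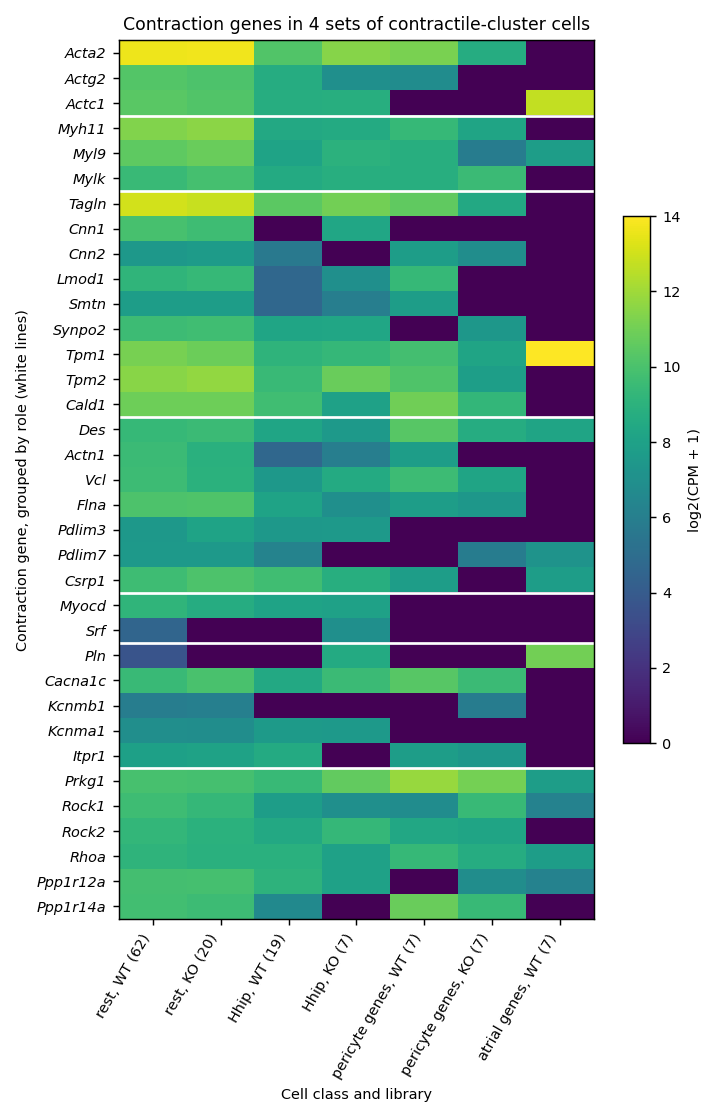
Levels of the 35 contraction genes as log2(CPM + 1) in 4 sets of contractile-cluster cells, divided by genes that are no members, with the number of cells in parentheses. The atrial-gene column (7 WT cells) is bright for Tpm1, Actc1 and Pln and at 0 for Acta2, Tagln and Myh11.

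The comparison between genotypes asks whether contractile cells of the KO-labelled library carried less or more of the contraction genes. Over all kept cells together they stood lower: 21 of the 35 genes were lower past 1.5-fold and 0 were higher, where 29.9% of 17485 genes were lower and 2.14% higher. Acta2 stood at 80.6 CPM of all UMIs in WT and 28.1 CPM in the KO-labelled library, a log2 ratio of -1.52 (95% interval -1.61 to -1.43). Contractile cells were themselves a smaller part of that library, 0.381% of cells (0.264 to 0.531) against 0.929% (0.752 to 1.13), a log2 ratio of -1.29. Every other compared class was also a smaller part there. Mesothelial-like cells were 10.1% in WT and 3.64% in the KO-labelled library, and adventitial fibroblast-like cells 4.47% and 1.23%. AT2-like cells were a larger part, 37.4% in WT and 65.2% in the KO-labelled library. In such pooled sums fewer cells of a type and less RNA per cell cannot be told apart, and the share of cells recovered by digestion and sorting was not tested.

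Within the contractile cluster most genes were close to level. With 20 or more UMIs over both libraries, 34 of the 35 genes passed the minimum; Srf did not. Past 1.5-fold, 6 of the 34 were lower in the KO-labelled library and 0 were higher, where 23.3% of 3921 genes were lower and 14.4% higher. The median log2 ratio of the 34 was -0.19 against -0.12 over all genes tested.

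Acta2 had 3424 UMIs in WT and 1093 in the KO-labelled cluster, at the levels given above, a log2 ratio of -0.11 (-0.21 to -0.01). Myh11 had 704 and 247 UMIs, a log2 ratio of 0.03 (-0.18 to 0.24), and Myl9 had 405 and 147, a log2 ratio of 0.08 (-0.20 to 0.36). The main actin, the myosin heavy chain and the light chain therefore differed between the libraries by under 1.5-fold in either direction. Tagln had 2266 and 612 UMIs and a log2 ratio of -0.35 (-0.48 to -0.22), and Cnn1 a log2 ratio of -0.40 (-0.81 to -0.01). On the higher side and under 1.5-fold were Cacna1c at 0.49 (0.13 to 0.83), Pdlim3 at 0.43 (-0.31 to 1.14), Mylk at 0.42 (0.05 to 0.78) and Prkg1 at 0.33 (0.03 to 0.62).

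By role, the genes past 1.5-fold were 1 of 3 actins, 0 of 3 myosin genes, 1 of 9 thin filament regulators, 2 of 7 dense body genes, 1 of 2 transcription factors, 1 of 5 ion handling genes and 0 of 6 signalling genes. Tpm1 stood at 2915 CPM in WT and 1413 CPM in the KO-labelled cluster, a log2 ratio of -1.04 (-1.30 to -0.80). Actc1 had a log2 ratio of -0.73 (-1.05 to -0.41) and Pln, with 31 and 6 UMIs, one of -0.83 (-2.38 to 0.46). These are the genes that the atrial-gene cells carried, and those cells were in the WT library only.

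Without the 7 atrial-gene cells, the WT level of Tpm1 was 2010 CPM and its log2 ratio -0.51 (-0.77 to -0.25). Actc1 stood at -0.48 (-0.81 to -0.15), and Pln reversed to 2.48 (0.25 to 5.11) on 3 and 6 UMIs, all 6 in 1 cell. Past 1.5-fold, 3 of 33 genes were then lower and 0 higher, where 22.9% of 3822 genes were lower and 14.2% higher: Actn1 at -0.92 (-1.46 to -0.41), Myocd at -0.66 (-1.23 to -0.13) and Vcl at -0.65 (-1.13 to -0.19). In the whole cluster these 3 stood at -0.85, -0.60 and -0.58, the last right at the 1.5-fold limit, and each fell short of 1.5-fold under at least 1 other way of processing. Atrial-gene barcodes were not limited to WT before filtering: 20 WT and 8 KO-labelled barcodes carried at least 3 of the 4 genes, of which 11 and 7 failed the limits on genes or mitochondrial UMIs.

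Without the pericyte-gene cells as well, 1 of 33 genes, Actn1 at -0.70 (-1.24 to -0.19), was lower and 0 were higher, where 24.0% and 12.6% of 3561 genes were. Acta2 then stood at 0.04 (-0.06 to 0.14), Tpm2 at 0.29 (0.09 to 0.49) and Cacna1c at 0.52 (0.14 to 0.88). The pericyte-gene cells were 7 of 95 WT cells and 7 of 34 KO-labelled cells, and the summed level of the 12 pericyte markers in the cluster was 1222 CPM in WT and 2513 CPM in the KO-labelled library. The summed level of the 10 cardiomyocyte markers was 4042 and 134 CPM. The 19 smooth muscle markers summed to 2347 and 2620 CPM.

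**Figure D4:**
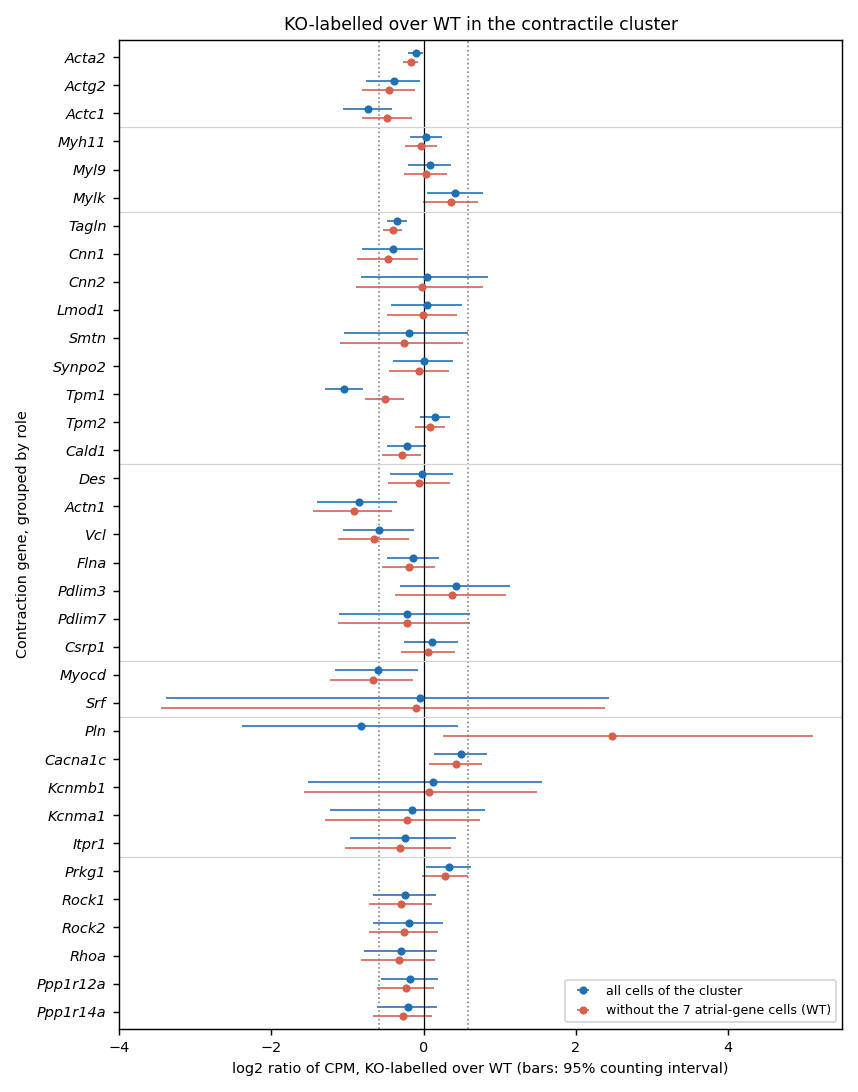
Log2 ratio of CPM, KO-labelled over WT, for each contraction gene in the contractile cluster, with 95% counting intervals (blue, all 129 cells; red, without the 7 atrial-gene WT cells; dotted lines, 1.5-fold). Tpm1 moves from -1.04 to -0.51 and Pln from -0.83 to 2.48 when those cells are left out, and the other 33 move by 0.25 or less.

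Epithelial transcripts in the contractile cluster also differed between the libraries, and not all in the same direction. Sftpc, a surfactant protein transcript of alveolar type 2 cells, stood at 10922 CPM in WT contractile cells and at 37828 CPM in KO-labelled ones. Within the cluster Sftpc was uneven, at 523 and 696 CPM in cells with Hhip and 780 and 53421 CPM in pericyte-gene cells. The remaining cells without Hhip held 11489 and 41825 CPM, and the WT atrial-gene cells 37235 CPM. Scaled by Sftpc, transcripts of the AT2-like profile came to 7.09% and 22.8% of the UMIs of the cluster. With that profile removed, Acta2 stood at 0.15, Tpm1 at -0.87 and Actn1 at -0.65, in place of -0.11, -1.04 and -0.85. Scgb1a1, the secretoglobin of airway club cells, stood the other way, at 1222 CPM (398 UMIs) in WT and 170 CPM (19 UMIs) in the KO-labelled library, a log2 ratio of -2.85 (-3.59 to -2.18). Its part in the ratios of the members was not tested.

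Other genes of contraction and its control, 46 in the files, were compared in the same way. Of these, 38 passed the minimum in the contractile cluster, 7 were lower past 1.5-fold and 4 higher, beside the 23.3% and 14.4% of all genes, with a median log2 ratio of -0.15. The widest differences were lower Cav1, the caveolar coat protein, at -1.54 (-2.31 to -0.85), lower Mrtfb, a partner of serum response factor, at -1.33 (-3.72 to 0.40), and higher Kcnj8, the pore of an ATP-sensitive potassium channel, at 1.07 (-0.08 to 2.18). Ilk, integrin-linked kinase, stood at -0.89 (-1.87 to -0.02), Abcc9, the regulatory subunit of that potassium channel and a gene also used as a pericyte marker, at 0.88 on 19 and 12 UMIs, and Pde3a, a phosphodiesterase, at -0.81 (-1.31 to -0.33). In both libraries 17 of the 46 were highest in the contractile cluster, with no count over all genes beside it.

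In inflammatory fibroblast-like cells, 25 genes passed the minimum, 3 were lower and 1 higher past 1.5-fold, where 9.25% of 10211 genes were lower and 7.43% higher. The lower genes were Srf at -0.70 (28 and 7 UMIs), Ppp1r14a, with 189 and 121 CPM, at -0.64 (-0.93 to -0.37), and Vcl, with 382 and 252 CPM, at -0.60 (-0.79 to -0.40). The higher gene was Smtn, with 16.2 and 25.4 CPM, at 0.65 (-0.09 to 1.37). Acta2 was level there, at 175 and 185 CPM and 0.08 (-0.16 to 0.32), and so was Tagln, at 105 and 104 CPM.

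In adventitial fibroblast-like cells, 25 genes passed, 5 were lower and 1 higher, where 14.5% of 9065 genes were lower and 10.1% higher. Ppp1r12a stood at 166 and 104 CPM, -0.68 (-1.13 to -0.25), and Vcl at 181 and 116 CPM, -0.64 (-1.07 to -0.24). The other lower genes rested on few UMIs: Synpo2, the actin-bundling synaptopodin 2, had 39 and 5, Acta2 58 and 8, and Tagln 26 and 4. Ppp1r14a was higher at 0.60 on 38 and 14 UMIs.

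Mesothelial-like cells, the lining of the lung surface, had the most members lower past 1.5-fold of the 7 classes. Of 25 genes that passed, 7 were lower and 2 higher, where 15.8% of 11316 genes were lower and 7.04% higher. Tpm2 had 213 UMIs in WT and 24 in the KO-labelled library, -1.52 (-2.19 to -0.91), seen in 147 of 1031 WT cells and 21 of 325. Des stood at 31.3 and 11.9 CPM, -1.40 (-2.17 to -0.70), and Mylk at 37.3 and 13.1 CPM, -1.51 (-2.23 to -0.85).

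Myocd had 58 and 5 UMIs in mesothelial-like cells, -1.90 (-3.58 to -0.60), and Pdlim3 had 122 and 13, -1.60 (-2.55 to -0.77). In Tpm2, Des, Mylk, Myocd and Pdlim3 no cell gave over 16 UMIs, so the lower levels did not come from 1 cell. Acta2 had 42 UMIs in WT, 18 of them in 1 cell, and 1 UMI in the KO-labelled library, -3.76 (-9.10 to -1.20), and Tagln had 45 and 7, -1.05 (-2.45 to 0.11). The higher genes were Cnn2, at 42.2 and 67.5 CPM, 0.68 (0.33 to 1.02), and Srf, at 12.7 and 20.6 CPM, 0.70 (0.05 to 1.33).

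The mesothelial-like class joined a large cluster with a small one of 7 WT and 51 KO-labelled cells that also carried AT2 genes. In the large cluster alone Tpm2 stood at 43.4 and 16.1 CPM and Mylk at 36.7 and 10.0 CPM. AT2 RNA scaled by Sftpc came to 2.34% of the class in WT and 8.44% in the KO-labelled library.

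In endothelium Prkg1 was lower past 1.5-fold in each of the 3 classes. It stood at 284 and 171 CPM in general capillary-like cells, a log2 ratio of -0.73 (-0.95 to -0.50). It stood at 341 and 200 CPM in aerocyte-like cells, -0.77 (-1.05 to -0.49), and at 686 and 405 CPM in venous-like cells, -0.76 (-1.04 to -0.49). All 3 classes come from the same 2 libraries. AT2 RNA scaled by Sftpc lay between 0.656% and 1.57% of UMIs in WT and between 6.97% and 11.4% in the KO-labelled library in these classes. Scgb1a1 had log2 ratios of -3.45 in general capillary-like cells and -3.67 in aerocyte-like cells, but 4.10 in venous-like cells, at 1507 and 25778 CPM. The part of these epithelial transcripts in the ratios was not tested.

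In general capillary-like cells, 18 genes passed, with Prkg1 lower and Cacna1c higher, at 20.6 and 39.9 CPM and 0.96 (0.34 to 1.59), where 9.35% of 9670 genes were lower and 7.23% higher. In aerocyte-like cells 16 passed, with Prkg1 lower and Cnn2 and Itpr1 higher, at 1.15 (10 and 18 UMIs) and 0.80 (22 and 31 UMIs), where 9.74% of 7978 genes were lower and 7.52% higher. In venous-like cells 19 passed, 3 lower and 4 higher, where 15.2% of 6534 genes were lower and 9.87% higher. Beside Prkg1, Ppp1r12a was lower at -0.72 (-1.02 to -0.42), and Pdlim3 at -0.82 (-1.72 to 0.02).

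The higher genes of venous-like cells were Acta2, Tagln, Cacna1c and Cnn2. Acta2 had 9 UMIs in WT and 71 in the KO-labelled library, 3.53 (2.53 to 4.72), and Tagln had 14 and 76, 2.99 (2.16 to 3.93). In the KO-labelled library 70 of the 71 UMIs of Acta2 sat in 3 cells, and 66 of the 76 of Tagln in 3 cells. At least 3 of the 14 genes past 10-fold in the contractile cluster were seen in 3 of 139 KO-labelled venous-like cells (2.16%, exact 0.447 to 6.18). They were seen in 0 of 255 WT cells, with up to 8 genes in 1 KO-labelled cell. Cacna1c rested on 7 and 17 UMIs, and Cnn2 on 14 and 19.

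**Figure D5:**
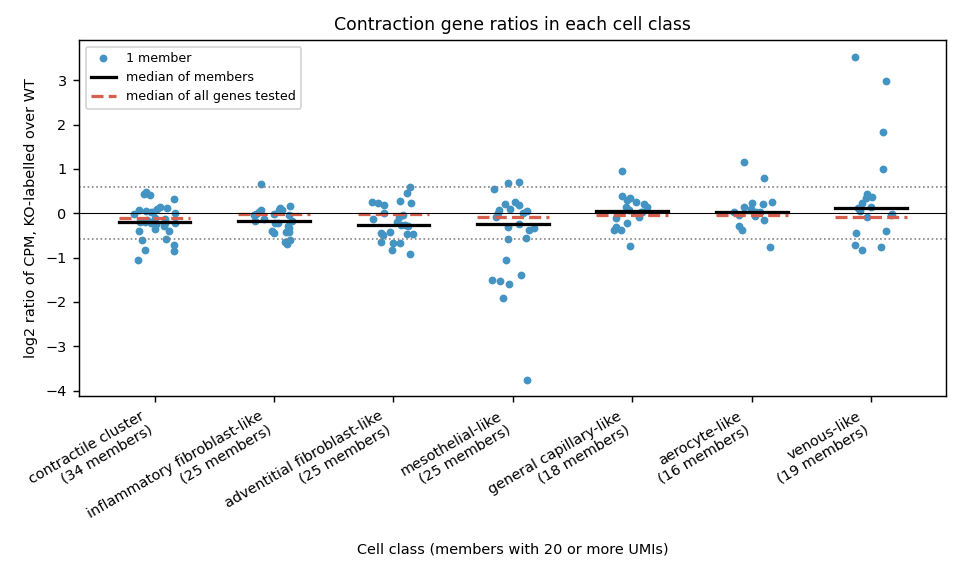
Log2 ratio of CPM, KO-labelled over WT, of each contraction gene with 20 or more UMIs in 7 cell classes, with the median of the members (black) and of all genes tested (red, dashed) and dotted lines at 1.5-fold. The member medians lie between -0.25 and 0.12, and the points farthest from 0 are Acta2 in mesothelial-like (-3.76) and in venous-like cells (3.53).

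Taken as the median of the members minus the median of all genes tested in the same class, the list stood at -0.07 in the contractile cluster, -0.15 in inflammatory fibroblast-like, -0.24 in adventitial fibroblast-like and -0.15 in mesothelial-like cells. It stood at 0.09 in general capillary-like, 0.08 in aerocyte-like and 0.20 in venous-like cells. In the contractile cluster 1 of the genes next to the median was Smtn. Its own counting interval, centred on all genes tested in the same way, ran from -0.93 to 0.70. Any difference between classes in how the list moved was not tested.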

How the data were processed

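Per the file headers and the submitters' processing notes, the authors made the deposited matrices with Cell Ranger (7.0.0 in the headers, 7.0.0 and 7.1.0 in the notes) on mm10. The deposited values are counts, raw UMIs per gene and barcode, without normalization. How barcodes were called as cells and whether intronic reads were counted is not given in the sources used here; intronic or free RNA would raise low counts in every class.

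From these counts, barcodes under 500 genes or over 15% mitochondrial UMIs were removed, and Scrublet doublets (expected 8%; 617 WT, 5.69%, and 175 KO-labelled, 1.92%) were left out. Both libraries were clustered together in scanpy 1.11.5 (2000 variable genes, 30 components, 15 neighbours, Leiden resolution 1, leidenalg 0.10.2). The clustering used neither the 35 members nor Plaur, nor genes of mitochondria, ribosomes, haemoglobin or sex-linked expression. A cluster took a class name from at least 3 markers among its 50 leading genes (ranked by fold against the median cluster after adding 10 CPM, and seen in 20% or more of its cells) and no tie. The contractile cluster did not meet that rule and was chosen as the cluster with the most smooth muscle markers; 1 cluster led by immune genes was left unnamed, a choice made after the clusters were seen. The members and lists were chosen with earlier results of these data known.

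UMIs were summed per class and library. Levels have exact Poisson, shares exact Clopper-Pearson and ratios exact conditional binomial 95% intervals; PCR and free RNA are not covered. A gene entered a comparison with 20 or more UMIs over both libraries, and past 1.5-fold is a log2 ratio beyond 0.585. A gene at 0 stands at a floor of 3 UMIs. All members with 20 or more UMIs are named or counted by role; of the other contraction genes, at most 6 past 1.5-fold are named by size. Ratios were tested on simulated data. edgeR 4.0.16 TMM factors moved the ratios of the contractile cluster by -0.06 and those of the other classes by between -0.04 and 0.05. Other alternatives were a stricter cell filter, doublets kept, resolution 2, members in the clustering, libraries clustered apart, means over cells, thinning to 1000 UMIs, other minimums and other totals. Promoters are RefSeq entries of GRCm38.p6, and gene positions GENCODE M21 of the same assembly.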

Additional observations from a re-analysis of the deposited data

Results flagged for a closer look

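4 of the 35 genes stood past 1.5-fold in opposite directions in different classes of the same 2 libraries, and these differences between classes were not tested. The same count over all genes is not given here, so it has no background share beside it and is no result about the list. Acta2 had a log2 ratio of KO-labelled over WT of -0.82 in adventitial fibroblast-like cells and -3.76 in mesothelial-like cells, but 3.53 in venous-like cells. Tagln had -0.66 in adventitial fibroblast-like cells and -1.05 in mesothelial-like cells, but 2.99 in venous-like cells, where 3 KO-labelled cells held most of its UMIs and of those of Acta2. The interval of Tagln in mesothelial-like cells, given above, covered both directions. Srf stood at -0.70 in inflammatory fibroblast-like cells on 28 and 7 UMIs and at 0.70 in mesothelial-like cells on 63 and 33 UMIs. Ppp1r14a stood at -0.64 in inflammatory fibroblast-like cells on 513 and 133 UMIs and at 0.60 in adventitial fibroblast-like cells on 38 and 14 UMIs, with an interval of -0.40 to 1.51 in the latter.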

How the results depend on the processing

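The number of members highest in the contractile cluster was 31 as reported and lay between 30 and 32 over 9 alternatives. The centred list median of that cluster, -0.07 as reported, lay between -0.24 and 0.34 over 17 alternatives and so changed sign. Such medians were set against the counting interval of the 1 gene at the median, which is no measure of their stability. In the other classes 2 values moved by more than that interval: with the mean in place of the median, the list stood at -0.36 in mesothelial-like cells and at 0.47 in venous-like cells. Of the genes past 1.5-fold as reported, Pln reversed, to 2.56 with 1000 genes and 10% mitochondrial UMIs as limits, 2.37 with members allowed in the clustering, 2.48 without the atrial-gene cells and 2.68 without the atrial- and pericyte-gene cells; the 6 KO-labelled UMIs of Pln came from 1 cell. Tpm1 ranged from -1.52 to -0.33 and Acta2 from -0.25 to 0.29 over 14 alternatives each, with 0.29 when the libraries were clustered apart. Over the same 14, Actn1 ranged from -1.29 to -0.52, Actc1 from -0.91 to -0.27, Myocd from -0.81 to -0.25 and Vcl from -0.77 to -0.32, each short of 1.5-fold under some, while Kcnmb1 ranged from -0.77 to 1.21 and Kcnma1 from -0.44 to 1.18. The atrial- and pericyte-gene alternatives, the removal of AT2 RNA and the ratios without centring were chosen after the data were seen. Totals without epithelial genes left Tpm1 at -1.04. The genes taken out held 0.715% and 0.979% of the UMIs of the contractile cluster, less than Sftpc alone at 10922 and 37828 CPM. Sftpc was therefore not among them, and all ratios of the cluster moved by only 0.0038. Depth limits Srf, Pln, Kcnmb1 and Kcnma1, with 6, 31, 16 and 39 WT UMIs in the contractile cluster, and 34 KO-labelled cells limit every ratio there. No paired analysis was possible because each genotype had 1 library.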
